A study of Mus musculus with 12 samples.

Results

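Molecular chaperones help other proteins reach and keep their folded shape, and 81 of the 20620 genes in the count table belonged to the heat shock, DnaJ and chaperonin families by name. They were taken by the start of the gene symbol, *Hsp* followed by a, b, d, e, h or a digit, *Dnaj* type a, b or c, and *Cct*, leaving out *Hspa2* and *Dnajc3*. This gave 28 *Hsp*, 4 *Dnaja*, 13 *Dnajb*, 27 *Dnajc* and 9 *Cct* genes. The name does not guarantee the function, since *Hspb11* encodes a part of the transport machinery of cilia and *Hspbp1* and *Hspbap1* encode proteins that bind a heat shock protein.

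RNA and ribosome footprints (the fragments of mRNA that translating ribosomes protect from nuclease) were profiled in C57BL/6 mice at P16 (16 days after birth), from whole testes. The control mice were *Mael*+/-, with 1 intact copy of the gene for Maelstrom, a protein of the piRNA pathway that keeps LINE-1 retrotransposons silent in germ cells, and the mutants were *Mael*-/-. All testes were collected in cycloheximide, which holds ribosomes on mRNA, and part of each extract went to each assay, so that 3 extracts of each genotype gave 6 RNA and 6 footprint libraries. The libraries were made to ask whether RNA granule proteins that gather with LINE-1 in the mutant germ cells affect the translation of mRNAs bound by its ORF1 protein. *Mael* itself checked the labels: its RNA differed by -11.64 on the log2 scale in *Mael*-/- (SE 0.36; quasi-likelihood test of edgeR, Benjamini-Hochberg adjusted p = 3.59e-07). The labels do not say whether the extracts came from separate animals, so p-values describe the spread between extracts. Whole testis is a mixture, and fewer cells of a type and less RNA per cell cannot be told apart.

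HSP70 proteins grip unfolded stretches of a client and release them with the help of DnaJ proteins, which start the ATP cycle, and of HSP110 proteins, which exchange the nucleotide. HSP90 proteins finish the folding of kinases, receptors and other clients. Chaperonins are closed chambers: Hspd1 and Hspe1 form that of mitochondria, and the CCT ring, of which Tcp1 is also a subunit, folds actin and tubulin in the cytosol. Most of these genes work in every cell, a subset is switched on by heat shock factor Hsf1 when unfolded proteins accumulate, and a further subset is used mainly by spermatocytes and spermatids.

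RNA libraries held 13697267 to 27462358 gene counts and footprint libraries 7609932 to 13233565. Between 1.19 and 1.30% of these fell on the 81 genes in RNA, and between 1.17 and 1.48% in footprints. Extract 1 of *Mael*+/- stood apart in both assays: the median of 9 tested pachytene markers was 1.58 above the mean of the assay on the log2 scale, against -0.28 and 0.04 in the other *Mael*+/- RNA libraries and -0.53 to -0.42 in *Mael*-/-. The shift was not particular to these markers. The median of 7 markers of early meiotic prophase was also highest in extract 1, at 0.86 in RNA and 1.08 in footprints. In the other RNA libraries it was at most 0.21. For several of the lists and member differences below, the value without this extract is given as well. Values without such an addition rest on all extracts. Without it, log2 fold changes of the members ran from -0.46 to 0.51 in RNA, in place of -1.49 to 0.63, and 75 of 76 were within 0.5 of 0, in place of 71. It was the library with the highest level for 35 of 76 tested chaperone genes in RNA, while it was the highest for 27.5% of all genes, and for 37 of 73 in footprints, against 26.5% of all genes. *Mael*+/- extract 2 had the lowest level for 32 of 73 in footprints, against 23.7% of all genes.

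The control sequence of a heat shock gene is a heat shock element, in which units of GAA and of its reverse complement TTC alternate, 2 bases apart. The promoters of 66 of the 81 genes were available from RefSeq (GRCm38.p6), from 250 bases before to 50 after the start. GAANNTTC, with 2 units, was present on either strand in 16 of the 66 (24.2%) and in 9.04% of the promoters of 27025 genes. It was present in 7 of 8 promoters of heat-inducible members (87.5%) and in 9 of 58 of the others (15.5%). The longer form with 3 units, GAANNTTCNNGAA, which contains the shorter one, was present in 4 of 66 promoters, 6.06% against 0.662% of all genes. For each of these 4 genes, a match to the longer form is shown, with its 3 units in capitals. Of them, *Hspe1*, *Hspd1* and *Hsph1* are on the heat-inducible list and *Dnajb6* is not:

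*Hspe1* (chr1:55088056-55088084, plus strand): ccgttctaGAACCTTCCGGAAggccccgc

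*Hspd1* (chr1:55088056-55088084, minus strand): gcggggccTTCCGGAAGGTTCtagaacgg

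*Hsph1* (chr5:149636280-149636308, minus strand): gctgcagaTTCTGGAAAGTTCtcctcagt

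*Dnajb6* (chr5:29735844-29735872, plus strand): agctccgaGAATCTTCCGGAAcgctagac

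*Hspd1* and *Hspe1* are read in opposite directions on chromosome 1, from 55077833 to 55088243 on the minus strand and from 55088148 to 55091317 on the plus strand, so that the first 2 lines are the same bases read from either strand. In both lines a further alternating unit stands in small letters beside the capitals, as part of an overlapping match. The shared site is counted for both genes. A match is a description of these letters and does not show that a factor was bound.

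The most abundant chaperone mRNAs per length were those of cytosolic and endoplasmic reticulum HSP90 and HSP70. In TPM (a level per length, with counts divided by the length of the exons for RNA or of the coding sequence for footprints and scaled to the same total in every library), *Hsp90ab1*, the constitutive HSP90, had 1328, 1422 and 1328 in *Mael*+/- RNA and 1326, 1273 and 1151 in *Mael*-/- RNA. The *Mael*-/- values were all below those of *Mael*+/-, with 1326 and 1328 the nearest, and the difference of -0.12 on the log2 scale (SE 0.08) had an edgeR adjusted p of 0.98. Its footprint TPM was 1413, 1491 and 1578 in *Mael*+/- and 1548, 1540 and 1566 in *Mael*-/-, which overlapped (log2 fold change 0.04, SE 0.10). *Hspa5*, the HSP70 of the endoplasmic reticulum known as BiP, had 1405, 1110 and 1052 TPM in *Mael*+/- RNA and 1003, 977 and 983.6 in *Mael*-/- RNA. The genotypes did not overlap and extract 1 of *Mael*+/- was the highest. The log2 fold change of -0.26 (SE 0.11) had an edgeR adjusted p of 0.92, and it was -0.12 without that extract. *Hsp90b1*, the HSP90 of the same compartment, averaged 1014 ± 89.9 TPM in *Mael*+/- RNA and 943 ± 59.5 in *Mael*-/- RNA (SD, n = 3).

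The other highly expressed members were *Hspa8*, the constitutive cytosolic HSP70, at a mean of 1088 TPM over the 6 RNA libraries, *Cct3* at 529, *Hsp90aa1* at 519, *Cct2* at 517, *Cct5* at 470, *Cct8* at 391 and *Cct4* at 367. The median member had 45.2 TPM in RNA, against 8.73 TPM for the median gene, and 29 of 81 members exceeded 100 TPM. The order *Hsp90ab1*, *Hspa5*, *Hspa8* was not resolved between the last 2, whose means were both 1088. Of the exon stretches of 75 bases, 79.3% for *Hspa8* and 77.1% for *Hsp90aa1* occur elsewhere in the genome (described below), against 0% for *Hspa5*. How reads of *Hspa8* and *Hsp90aa1* were assigned, and so their place in this order, is uncertain. At the other end, 7 members lay under 1 TPM in RNA. *Dnajc5b* had no count in any library, *Dnajb8* had 1 count in all 12, and *Dnajb7* had at most 1 count in a library. All 3 are known from the adult testis.

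**Figure D1:**
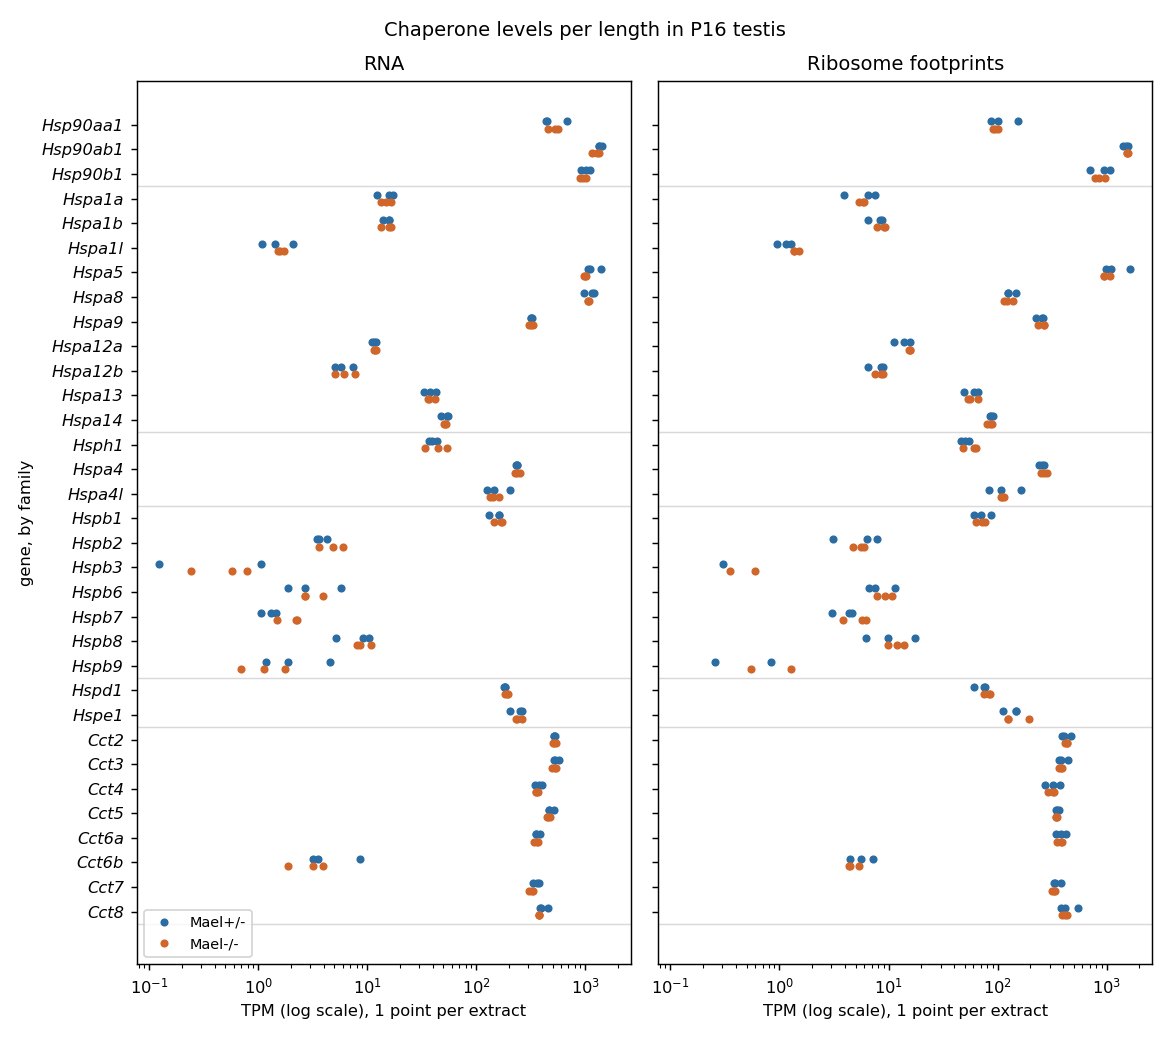
Level per length of the members of the HSP90, HSP70, HSP110, small heat shock, mitochondrial chaperonin and CCT groups (rows, separated by grey lines) in RNA and in ribosome footprints, as TPM on a log axis. Each point is 1 extract, blue for *Mael*+/- and orange for *Mael*-/-, and libraries with 0 counts are not drawn; *Hspa8* and *Hsp90aa1* lie far lower in footprints (128.7 and 104.4 TPM on average) than in RNA (1088 and 519.4 TPM).

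No chaperone gene passed the test between genotypes. Of the members, 76 had enough counts to be tested in RNA and 73 in footprints, and 0 were called at an adjusted p under 0.05 in either (edgeR), where 0.116% of 14685 genes in RNA and 0.0593% of 13500 in footprints were called. DESeq2 and limma voom with quality weights also called 0 members in both assays. At an unadjusted p under 0.05, 3 of 76 members passed in RNA (3.95%, against 5.4% of all genes) and 2 of 73 in footprints (2.74%, against 4.33%). Translation efficiency, the change of footprints beyond that of RNA, was tested as the interaction of genotype and assay. It gave 0 called of 73 members where 0% of 13448 genes were called, and 0 at an unadjusted p under 0.05, where 0.394% of all genes passed. With RNA and footprints of an extract paired, 0 of 73 members and 0% of genes were called. The paired test gave 1 member (1.37%) at an unadjusted p under 0.05, *Hsp90aa1*, against 2.07% of all genes.

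The precision of these tests bounds what may have been missed. The median log2 fold change of the members was -0.0097 in RNA and -0.028 in footprints, beside -0.0013 and -0.0086 for all genes tested. In *Mael*-/- RNA 35 members were higher and 41 lower, where 49.6% of all genes were higher. In footprints 30 were higher and 43 lower, where 47.5% of all genes were higher. Without *Mael*+/- extract 1 both directions turned, to 41 higher and 35 lower in RNA and 48 higher and 25 lower in footprints. Of all genes, 50.5% were then higher in RNA and 48.8% in footprints. The 95% confidence interval lay wholly within a log2 change of 1 in either direction for 68 of 76 members in RNA (88.7% of all genes), for 69 of 73 in footprints (90.9%), and for 65 of 73 in translation efficiency (87.1%), or 69 of 73 with extracts paired (93.0%). In CPM (counts scaled by library size, without regard to length), the summed level of the 81 genes was 13270, 12280 and 12110 in *Mael*+/- RNA and 11850, 12090 and 11990 in *Mael*-/- RNA. The *Mael*-/- sums were the lower ones, with extract 1 of *Mael*+/- the farthest from the rest. In footprints the sums were 15210, 11490 and 13460 in *Mael*+/- and 13360, 12270 and 12790 in *Mael*-/-, which overlapped.

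**Figure D2:**
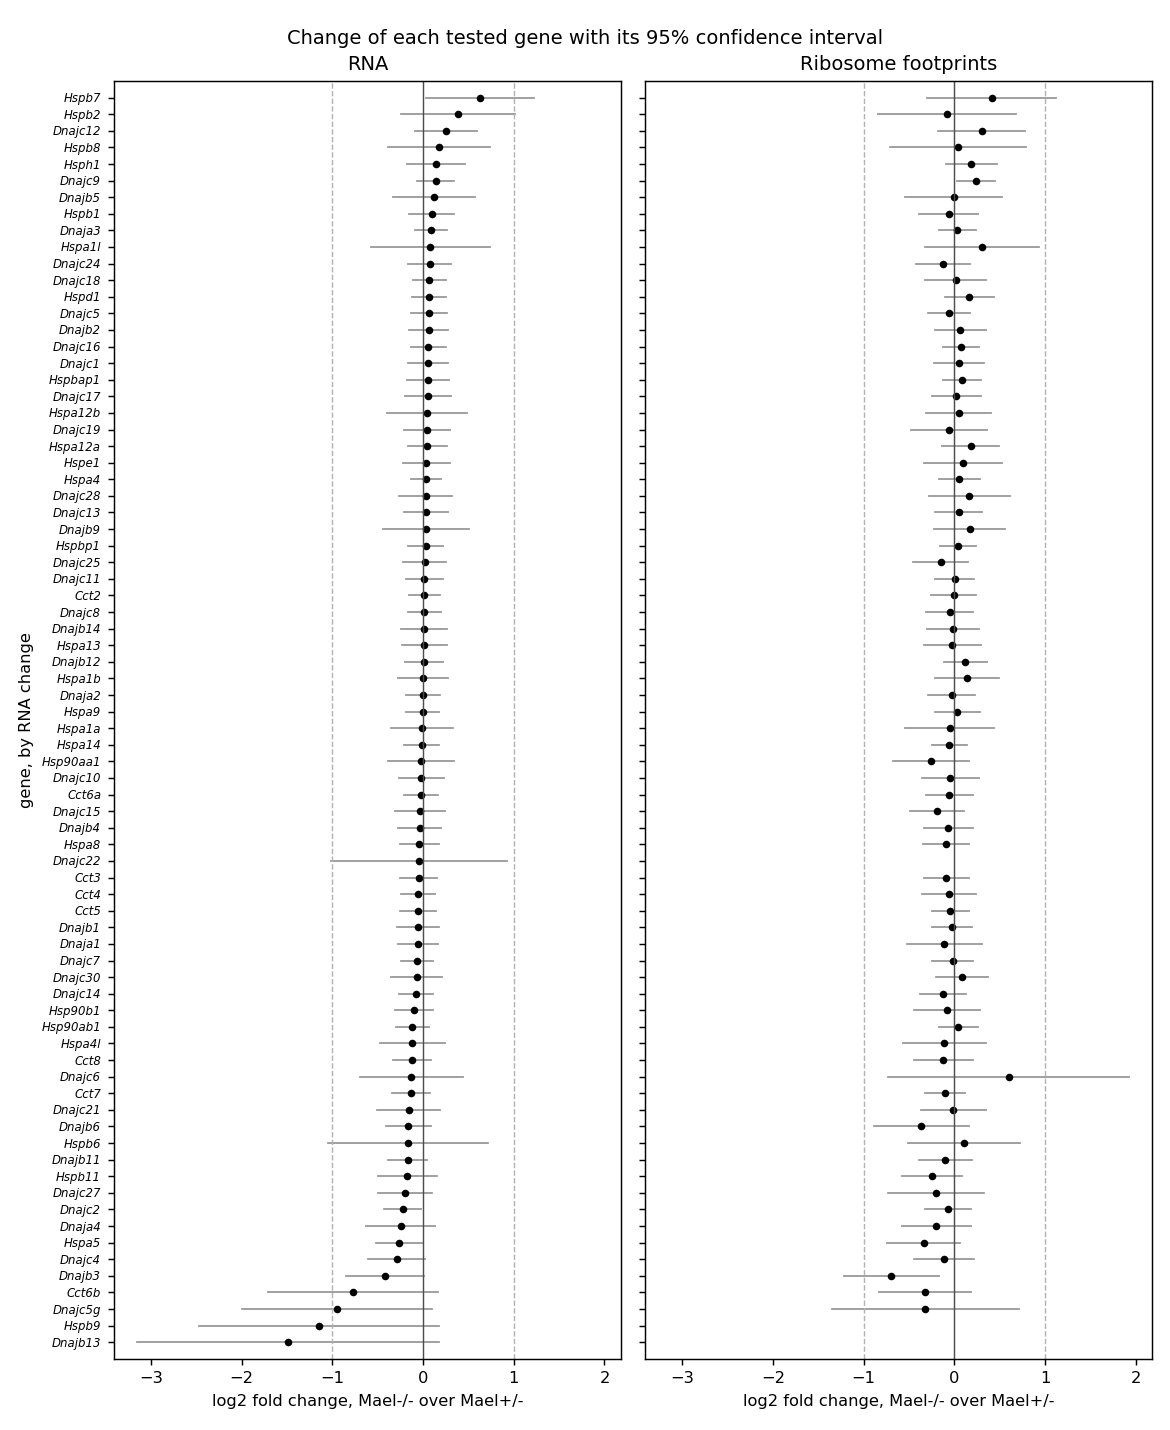
Log2 fold change of *Mael*-/- over *Mael*+/- (points) with its 95% confidence interval (lines) for the 76 members tested in RNA, ordered by their RNA change, and for the 73 of them tested in footprints; the dashed lines mark a log2 change of 1 either way. Most intervals lie between the dashed lines, 68 of 76 in RNA and 69 of 73 in footprints, and the widest belong to genes of low count such as *Dnajb13* and *Hspb9*.

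The genes through which a heat shock response is usually read did not differ measurably. The list of 10 heat-inducible members includes *Hspa8*, which is abundant without heat and induced further by it. It had 4 higher and 6 lower in *Mael*-/- RNA, with a median log2 fold change of -0.0080 and a range from -0.058 to 0.14, and likewise 4 higher and 6 lower in footprints, with a median of -0.039. Without *Mael*+/- extract 1, 7 were higher and 3 lower in both assays, with medians of 0.015 in RNA and 0.046 in footprints. Without *Hspa8*, a choice made after the data were seen, the medians were -0.0020 in RNA and -0.028 in footprints. The highest upper bound of their 95% confidence intervals was 1.37-fold in RNA and 1.44-fold in footprints. These values hold for the counts as deposited. Of this list, only *Hsph1* and *Dnajb1* had 0% of their coding stretches of 30 bases repeated elsewhere in the genome (described below). The others had from 80.8% (*Hspd1*) to 95.1% (*Dnaja1*), so how their reads were assigned is uncertain. *Hspa1a*, the strictly inducible HSP70, had 12.4, 17.4 and 15.8 TPM in *Mael*+/- RNA and 13.5, 16.4 and 14.9 in *Mael*-/- RNA. Its near copy *Hspa1b* had 13.8, 15.8 and 16 TPM in *Mael*+/- RNA and 15.7, 16.4 and 13.3 in *Mael*-/- RNA. Both overlapped between the genotypes, with log2 fold changes of -0.014 (SE 0.15) and -0.0020 (SE 0.13), or -0.13 and -0.062 without *Mael*+/- extract 1. Their coding sequences are 99.4% identical, with 8 substitutions and 3 gap bases over 1929 aligned bases, and they lie in a cluster with *Hspa1l* on chromosome 17 from 34956429 to 34979228, so how reads were divided between them is uncertain.

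*Hsph1*, an HSP110 and one of the carriers of the longer element, had the largest RNA change of the list. It had 43.6, 36.9 and 38.9 TPM in *Mael*+/- RNA and 53.4, 44.6 and 33.8 in *Mael*-/- RNA, so that *Mael*-/- held both the highest and the lowest value. The log2 fold change was 0.14 (SE 0.14, edgeR adjusted p = 0.98) in RNA and 0.19 (SE 0.13, edgeR adjusted p = 0.998) in footprints. *Dnajb1*, the DnaJ partner induced with HSP70, averaged 89.7 ± 8.53 TPM in *Mael*+/- RNA and 85.7 ± 4.99 in *Mael*-/- RNA (SD, n = 3). *Dnaja1*, another partner, averaged 68.3 ± 6.68 and 65.5 ± 5.03 TPM, and the small heat shock protein gene *Hspb1* averaged 151 ± 16.8 and 161 ± 14.7 TPM. These 3 differed by less than the spread between extracts.

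*Hspd1* and *Hspe1*, which share the promoter shown above, had similar RNA levels in both genotypes. *Hspd1* had 178, 185 and 183 TPM in *Mael*+/- RNA and 182, 197 and 190 in *Mael*-/- RNA, with a log2 fold change of 0.067 (SE 0.083). *Hspe1* had 253, 205 and 261 TPM in *Mael*+/- RNA and 230, 264 and 238 in *Mael*-/- RNA, with a log2 fold change of 0.038 (SE 0.12). Both overlapped between genotypes. In footprints the log2 fold changes were 0.17 (SE 0.12) and 0.10 (SE 0.19). The third mitochondrial chaperone of high level, the HSP70 *Hspa9*, averaged 321 ± 4.26 TPM in *Mael*+/- RNA and 318 ± 12.8 in *Mael*-/- RNA.

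Of the regulators outside the families, *Hsf1* had a log2 fold change of -0.16 (SE 0.10; -0.092 without *Mael*+/- extract 1) in RNA and -0.092 (SE 0.11) in footprints, and *Hsf2*, a relative with roles in germ cells, had -0.023 (SE 0.10; 0.042 without that extract) and 0.011 (SE 0.10). Over 37 co-chaperones and regulators, 14 were higher and 23 lower in RNA and 0 were called in any contrast by edgeR. At an unadjusted edgeR p under 0.05, 3 of 37 passed in RNA and 2 of 37 in footprints, with *Hspa2* in both. Of all genes, 5.4% passed in RNA and 4.33% in footprints. Of the 2 genes left out by name, *Dnajc3*, a DnaJ of the endoplasmic reticulum, had -0.23 (SE 0.13) in RNA, or -0.061 without *Mael*+/- extract 1, and *Hspa2*, the HSP70 of spermatocytes, had -1.08 (SE 0.33, edgeR adjusted p = 0.76). Without that extract, *Hspa2* had -0.43 (SE 0.09, edgeR adjusted p = 0.0498) in RNA. The immediate early genes, which respond to handling and stress of tissue, had 4 of 8 higher and 4 lower in RNA, with a median log2 fold change of -0.10. Their summed RNA level was highest in *Mael*+/- extract 2, at 206 CPM (counts scaled by library size). It was 120 and 150 CPM in the other *Mael*+/- extracts and 134 to 153 in *Mael*-/-.

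The CCT subunits were present at similar levels per length. Over the 7 widely used subunits among the members (*Cct2*, *Cct3*, *Cct4*, *Cct5*, *Cct6a*, *Cct7* and *Cct8*), mean RNA levels ran from 337 TPM for *Cct7* to 529 TPM for *Cct3*, a ratio of 1.57. Mean footprint levels ran from 317 TPM for *Cct4* to 431 TPM for *Cct8*, a ratio of 1.36. With the eighth subunit *Tcp1*, at 563 ± 65.5 TPM in *Mael*+/- RNA and 469 ± 10.9 in *Mael*-/- RNA, the ratio in footprints was 1.56.

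Between genotypes, 1 of 8 *Cct* genes was higher and 7 were lower in *Mael*-/- RNA (median log2 fold change -0.057), and 0 were higher and 8 lower in footprints (median -0.075), 0 of them called. Without *Mael*+/- extract 1, the RNA direction stayed, with 3 higher and 5 lower and a median of -0.047, while in footprints 5 were higher and 3 lower, with a median of 0.031. *Cct8* had 549 footprint TPM in that extract, against 378 and 414 in the other *Mael*+/- extracts and 437, 392 and 416 in *Mael*-/-. *Cct2*, by contrast, had 512, 521 and 513 TPM in *Mael*+/- RNA and 533, 504 and 519 in *Mael*-/- RNA.

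*Cct6b*, a subunit used in the testis in place of Cct6a, was far below the rest. It had 8.56, 3.18 and 3.55 TPM in *Mael*+/- RNA and 3.16, 3.95 and 1.88 in *Mael*-/- RNA. Extract 1 of *Mael*+/- was highest and the others overlapped (log2 fold change -0.77, SE 0.42, edgeR adjusted p = 0.97). Without extract 1 the log2 fold change was -0.18 (SE 0.29).

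Among the chaperone lists, the testis-enriched one had the largest median difference, which also followed *Mael*+/- extract 1. Of the list of 10, 7 could be tested in RNA, of which 1 was higher and 6 were lower in *Mael*-/-, 0 called, with a median log2 fold change of -0.77 that was -0.13 without extract 1. In footprints 5 could be tested, with a median of -0.32, and of 0.20 without extract 1. Relative to the assay mean, the median level of the list was 0.84 in RNA of extract 1, -0.14 and -0.089 in the other *Mael*+/- extracts, and -0.094, -0.043 and -0.25 in *Mael*-/-. The pachytene markers moved with it. Their summed level was 935 CPM in RNA of extract 1, 326 and 361 in the other *Mael*+/- extracts and 266 to 303 in *Mael*-/-, and all 9 of those tested (2 of 11 had too few counts) were lower in *Mael*-/-, with a median log2 fold change of -1.19. Without extract 1 this median was -0.43, with 1 higher and 8 lower. The marker list includes *Hspa2*, itself an HSP70 gene, and without it, a choice made after the data were seen, the sums were 580 CPM in extract 1, at most 233 in the other *Mael*+/- extracts and 174 to 204 in *Mael*-/-. Markers of early meiotic prophase summed to 1549 CPM in RNA of extract 1, 571 and 694 in the other *Mael*+/- extracts and 587 to 885 in *Mael*-/-. Without extract 1 their log2 fold changes in RNA ran from -0.062 (*Dmc1*) to 0.71 (*Meiob*). The part of the number of pachytene or earlier meiotic cells in the chaperone differences was not tested.

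*Dnajc5g*, a cysteine string protein of the testis, had 16.2, 4.17 and 4.99 TPM in *Mael*+/- RNA and 4.27, 4.97 and 3.81 in *Mael*-/- RNA. *Dnajb13*, known from the radial spokes of the sperm tail, had 6.11, 1.22 and 0.842 TPM in *Mael*+/- RNA and 1.34, 0.539 and 1.03 in *Mael*-/- RNA. *Hspb9*, a small heat shock protein of the testis, had 4.55, 1.87 and 1.19 TPM in *Mael*+/- RNA and 1.77, 1.14 and 0.697 in *Mael*-/- RNA. In all 3, extract 1 was the highest and the other *Mael*+/- extracts overlapped with *Mael*-/-. Their log2 fold changes were -0.95 (SE 0.47), -1.49 (SE 0.75) and -1.15 (SE 0.59), each with an edgeR adjusted p from 0.94 to 0.95. Without extract 1 they were -0.064 (SE 0.24), -0.13 (SE 0.49) and -0.46 (SE 0.56).

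*Hspa4l*, the HSP110 known from spermatogenic cells, was the most abundant of this list. It had 204, 126 and 146 TPM in *Mael*+/- RNA and 162, 144 and 133 in *Mael*-/- RNA, with extract 1 again the highest, and a log2 fold change of -0.12 (SE 0.16) that was 0.11 (SE 0.10) without it. The third HSP110 gene, *Hspa4*, which works in all cells, averaged 234 ± 1.15 TPM in *Mael*+/- RNA and 239 ± 11.4 in *Mael*-/- RNA. *Hspa1l*, the HSP70 of spermatids that lies beside *Hspa1a*, went the other way in extract 1: it had 1.08, 2.08 and 1.44 TPM in *Mael*+/- RNA and 1.58, 1.53 and 1.72 in *Mael*-/- RNA, which overlapped. Its footprint TPM was 0.954, 1.15 and 1.28 in *Mael*+/- and 1.5, 1.36 and 1.35 in *Mael*-/-, which did not overlap, and the log2 fold change of 0.30 (SE 0.29) had an edgeR adjusted p of 0.998.

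*Dnajb3*, a single-exon DnaJ gene of spermatids, was the member with the lowest footprint fold change. It had 23.7, 15.7 and 13.4 footprint TPM in *Mael*+/- and 9.77, 11.9 and 11.4 in *Mael*-/-. The genotypes did not overlap, and the log2 fold change of -0.69 (SE 0.24) had an unadjusted edgeR p of 0.014 and an adjusted p of 0.998. Without *Mael*+/- extract 1 it was -0.40 (SE 0.20), with an unadjusted edgeR p of 0.071. In RNA it had 32.5, 20.9 and 22.9 TPM in *Mael*+/- and 18.01, 20.7 and 17.7 in *Mael*-/-, whose nearest values were 20.9 and 20.7.

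**Figure D3:**
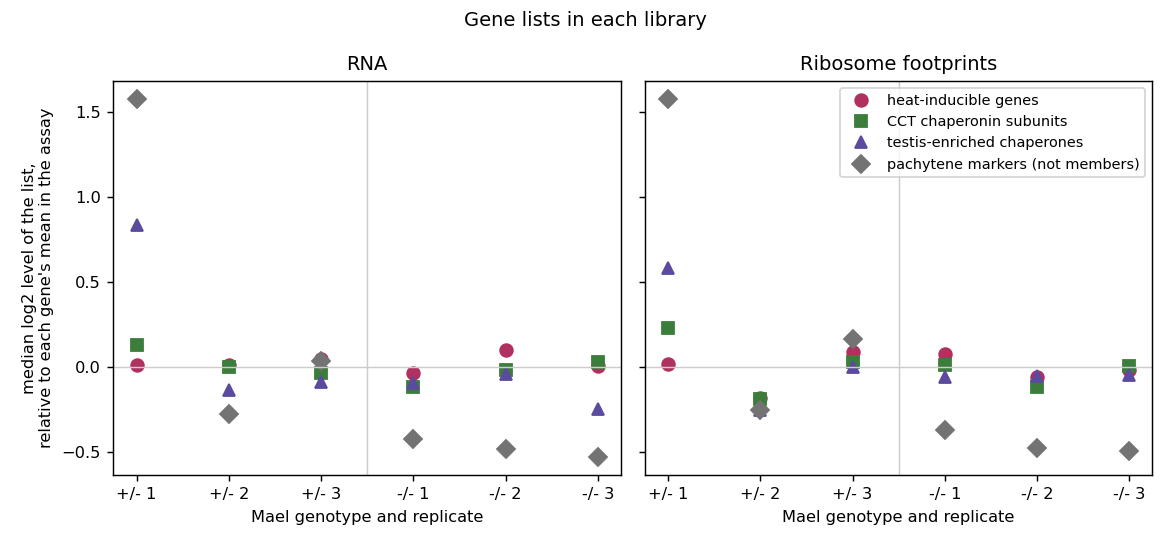
Median log2 level of 3 chaperone lists and of the pachytene markers in each library, relative to each gene's mean over the 6 libraries of the assay (y axis), for RNA and for ribosome footprints; the x axis gives the *Mael* genotype and replicate. The testis-enriched chaperones and the pachytene markers are highest in *Mael*+/- extract 1 (0.84 and 1.58 in RNA), while the heat-inducible genes stay near 0 in all 6 RNA libraries (-0.039 to 0.097).

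In CPM, the genotypes did not overlap for 7 of 76 members in RNA and for 3 of 73 in footprints. In RNA 1 member was higher in all *Mael*-/- libraries (1.32%, against 5.23% of all genes) and 6 were lower (7.89%, against 5.03%), namely *Dnajb6*, *Dnajc2*, *Dnajc4*, *Dnajc7*, *Hsp90ab1* and *Hspa5*. In footprints 2 were higher, *Dnajc9* and *Hspa1l* (2.74%, against 4.24% of all genes), and 1 was lower, *Dnajb3* (1.37%, against 4.85%). *Dnajc9*, a DnaJ that also handles histones, had 72.8, 80.03 and 75.1 footprint TPM in *Mael*+/- and 86.67, 95.7 and 88.5 in *Mael*-/-, and a log2 fold change of 0.24 (SE 0.10) with an edgeR adjusted p of 0.998. *Dnajc2*, a partner of the ribosome, had 266, 235 and 224 TPM in *Mael*+/- RNA and 216, 201 and 202 in *Mael*-/- RNA (log2 fold change -0.22, SE 0.09, edgeR adjusted p = 0.90), or -0.14 without *Mael*+/- extract 1.

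The member higher in all *Mael*-/- RNA libraries was *Hspb7*, a small heat shock protein known from muscle. It had 1.06, 1.45 and 1.32 TPM in *Mael*+/- RNA and 2.21, 2.27 and 1.498 in *Mael*-/- RNA. Its log2 fold change of 0.63 (SE 0.27) was the largest increase of the members tested in RNA, with an edgeR adjusted p of 0.91. The next, *Hspb2*, also a muscle small heat shock protein, had 3.64, 4.32 and 3.44 TPM in *Mael*+/- RNA and 3.64, 4.84 and 6.01 in *Mael*-/- RNA, which overlapped (log2 fold change 0.39, SE 0.28). *Hspb7* and *Hspb2* averaged only 39.5 and 33.7 counts in RNA. Another small heat shock gene, *Hspb6*, had 5.77, 2.66 and 1.87 TPM in *Mael*+/- RNA and 3.91, 2.66 and 2.68 in *Mael*-/- RNA. Its mean was lower in *Mael*-/- (3.43 and 3.08 TPM), with extract 1 of *Mael*+/- the highest. Markers of peritubular myoid and smooth muscle cells were higher in *Mael*-/- RNA in 5 of 5 genes, with a median log2 fold change of 0.20 and 0 called. Their summed level was 879 to 923 CPM in *Mael*+/- RNA and 991 to 1042 CPM in *Mael*-/- RNA, and its part in the *Hspb7* difference was not tested.

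By family, 0 of 3 HSP90 genes were higher and 3 lower in *Mael*-/- RNA, 4 of 10 HSP70 genes were higher and 6 lower, and 4 of 6 tested small heat shock genes were higher and 2 lower, 0 called in each. The members of the DnaJ types were centred near 0. Type A had 1 higher and 3 lower of 4 in RNA (median -0.031), type B 5 higher and 6 lower of 11 (median -0.039), and type C 14 higher and 12 lower of 26 (median 0.015). The endoplasmic reticulum list had 3 higher and 4 lower of 7 in RNA, with a median of -0.019, and 4 higher and 3 lower without *Mael*+/- extract 1, with a median of 0.11. *Dnajb9*, a DnaJ induced by unfolded protein in that compartment, had 65.6, 36.0 and 40.3 TPM in *Mael*+/- RNA and 54.9, 50.1 and 39.97 in *Mael*-/- RNA, with extract 1 the highest. *Dnajc12*, a co-chaperone of aromatic amino acid hydroxylases, had the largest footprint increase among members with a mean of at least 20 counts, 0.30 (SE 0.22). It had 20.1, 18.5 and 26.0 footprint TPM in *Mael*+/- and 34.4, 22.7 and 23.2 in *Mael*-/-. Near the other end lay *Dnajb6*, a suppressor of protein aggregation and also a carrier of the longer element, at -0.36 (SE 0.24) in footprints and -0.16 (SE 0.11) in RNA, or -0.14 and -0.072 without *Mael*+/- extract 1.

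In footprints, several of the best known chaperones stood far below their RNA rank. *Hspa8* ranked 3 of the 81 genes in RNA and 20 in footprints, and *Hsp90aa1*, the inducible HSP90, ranked 6 and 23. As log2 of footprint TPM over RNA TPM in the same extract, *Hspa8* had -2.95, -3.26 and -2.98 in *Mael*+/- and -2.94, -3.12 and -3.24 in *Mael*-/-. *Hsp90aa1* had -2.15, -2.35 and -2.17 in *Mael*+/- and -2.48, -2.47 and -2.33 in *Mael*-/-. The value was thus low in every extract of both genotypes, and the mean for *Hspa8* was at the 0.21 percentile of the 9988 genes that averaged 100 counts or more in both assays. *Dnajc2* (-1.96), *Hspd1* (-1.30) and *Dnajc8* (-1.18) came next. The highest were *Hspbap1* (1.26), *Dnajc1* (1.26), *Dnajb9* (1.11), *Dnajb4* (1.11) and *Dnajb12* (0.89). Over 60 members with that many counts the median was -0.14, beside 0.014 for all genes.

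Several members with low footprints per RNA share coding sequence with other places in the genome. For each gene, all stretches of 30 bases in the coding sequence, about as long as a footprint, were looked up in the rest of GRCm38. The share found elsewhere was 95.03% for *Hspa8*, 92.1% for *Hsp90aa1*, 95.1% for *Dnaja1*, 90.0% for *Hspb1*, 91.3% for *Hspa1a*, 88.6% for *Hspa1b*, 88.8% for *Dnajb6*, 85% for *Hspe1* and 80.8% for *Hspd1*. It was 0% for 52 of the 81 genes. Stretches of 75 bases in the exons, as long as the RNA reads, were found elsewhere less often, in 79.3% for *Hspa8*, 77.1% for *Hsp90aa1* and 34.3% for *Dnaja1*. These examples, each one of the stretches with the most copies of its gene, are printed from the strand of the gene and show what a footprint from such a gene would carry:

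*Hspa8* (chr9:40802844-40802873, plus strand): atcaatgaaccaactgctgctgctattgct

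*Hsp90aa1* (chr12:110693033-110693062, minus strand): accagaatgaaggaaaaccagaagcacatc

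*Hspd1* (chr1:55079131-55079160, minus strand): gagcagctgttgaagaaggcattgttctag

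*Dnaja1* (chr4:40723989-40724018, plus strand): aagcttatgaagttcttgctgattccaaaa

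*Hspa1a* (chr17:34971827-34971856, minus strand): ggcaaggtggagatcatcgccaacgaccag

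The *Hspa8* stretch had 10 exact copies elsewhere, all 10 in annotated pseudogenes. That of *Hsp90aa1* had 4, of which 3 lay in annotated pseudogenes and 1 outside genes. Those of *Hspd1* and *Dnaja1* had 6 and 4 copies, all in annotated pseudogenes. The *Hspa1a* stretch had 3 copies, all in other genes, and the same 30 bases stand in *Hspa1b* at chr17:34958909-34958938.

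Of the 60 members with enough counts, 7 had more than 50% of their coding stretches elsewhere. Their median log2 footprints per RNA was -1.13 (range -3.08 to -0.39), against 0.097 (range -0.82 to 1.26) for the 41 members under 1%, and -0.28 for the 12 between. *Dnaja1*, at -0.39, and *Dnajb9*, with 44.2% of stretches elsewhere and 1.11, did not follow the order. Across the 60 genes Pearson's r was -0.62 and Spearman's rho was -0.53. These describe genes that share 12 libraries and are not independent. How the authors' counting treated reads that match several places is not given in the sources used here, and its part in the low footprint levels was not tested. *Hsp90ab1*, with 23.2% of stretches elsewhere, had 0.22, while *Dnajc2*, with 28.3%, had -1.96.

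**Figure D4:**
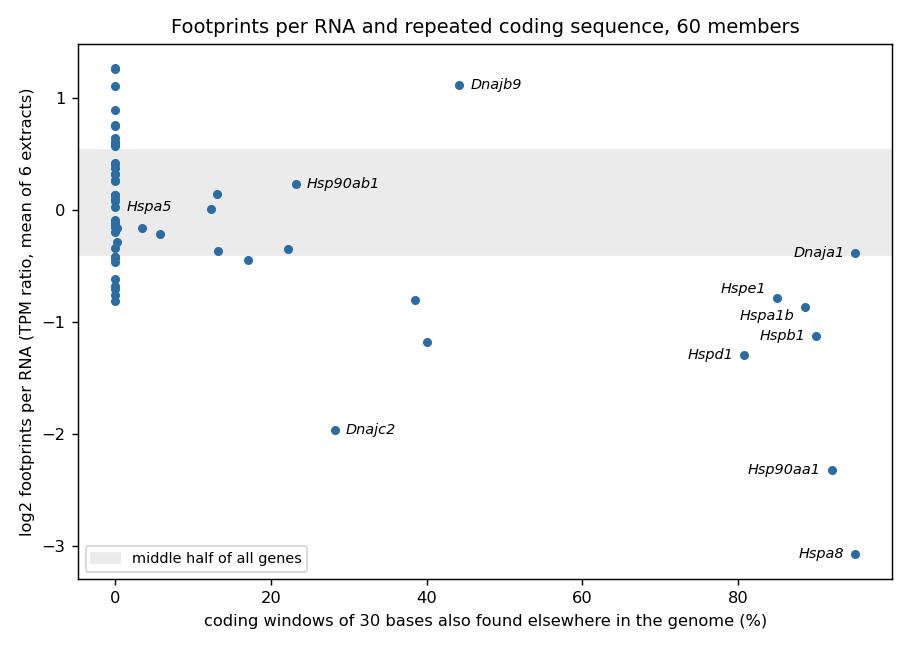
Log2 ratio of footprint TPM to RNA TPM, mean of the 6 extracts (y axis), against the percentage of 30-base stretches of the coding sequence found elsewhere in the genome (x axis), for the 60 members with a mean of at least 100 counts in both assays; each point is 1 gene and the grey band holds the middle 50% of all genes (-0.41 to 0.53). Of the 7 genes right of 50%, *Dnaja1* is the highest at -0.39 and *Hspa8* the lowest at -3.08.

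The change of footprints beyond RNA between genotypes was small for the abundant members. *Hsp90aa1* had the lowest of the abundant genes, a log2 change of -0.24 (SE 0.29; edgeR interaction, adjusted p = 0.9999), or -0.22 (SE 0.10, adjusted p = 0.9999) with RNA and footprints of an extract paired. In the values above, the 3 *Mael*-/- extracts reached -2.33 at the highest and *Mael*+/- extract 2 lay at -2.35, so the genotypes overlapped. *Hsp90ab1* had 0.16 (SE 0.11), *Hspa5* had -0.075 (SE 0.24) and *Hspa8* had -0.049 (SE 0.15). The largest changes in either direction belonged to genes of low count, *Hspb2* at -0.47 (SE 0.44) and *Dnajc6*, at under 1 TPM in every library of either assay, at 0.74 (SE 0.64). The testis genes *Dnajc5g* and *Cct6b* came next above 0, at 0.63 (SE 0.80) and 0.45 (SE 0.53), or 0.28 and 0.066 without *Mael*+/- extract 1. Over the 73 members tested, 38 were higher and 35 lower, with a median of 0.0047, beside -0.0023 for all genes.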

How the data were processed

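The deposited table holds raw counts of reads per gene, whole numbers without normalization, which the authors made from 75-base reads; per the labels, tools were Bowtie 1.2.2, STAR 2.6.0c, featureCounts of Subread 1.6.4 and DESeq2 1.24.0, on mm10. The authors counted RNA over whole mRNAs and footprints over coding sequence. Settings for strand, for reads with several matches and for duplicates are not given in the sources used here. The deposited tables of the authors' DESeq2 comparisons (log2 fold changes, errors and p-values) and 5138235 repeat rows were not used.

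Genes were tested with edgeR 4.0.16 (R 4.3.3): quasi-likelihood F-tests, TMM factors within each assay, filterByExpr, and p-values adjusted by Benjamini-Hochberg over all genes, with 0.05 as the threshold. Each assay was fitted alone on its 6 libraries, and translation efficiency as the interaction over 12. The labels' extract numbers pair RNA with footprints. Over 11235 genes, deviations of the same extract from its group correlated at 0.67 to 0.81 in *Mael*+/- and at 0.27 to 0.29 in *Mael*-/-. CPM used the TMM factor. TPM used RefSeq GRCm38.p6 union exon or coding lengths. Alternatives were DESeq2 1.42.0, limma 3.58.1 (voom), median-of-ratios factors, other filters, blocks and leaving out each library. Identical replicates were looked for and 0 found. The tests were tried on simulated data.

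The members and gene lists were chosen with earlier results of these data known. The text names the members of the HSP90, HSP110, CCT, mitochondrial chaperonin, heat-inducible and testis-enriched lists, the 10 highest in RNA, the 5 at either end of each contrast (mean of at least 20 counts) and of footprints per RNA (at least 100), and *Hsf1*, *Hsf2*, *Hspa2*, *Dnajc3* and *Tcp1*. Further members named as examples were chosen after their values were seen. With counts of a few reads, precision is limited by counting error.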

Additional observations from a re-analysis of the deposited data

How the results depend on the processing

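In each of the 3 contrasts, 0 members were called under each alternative tried. Of 114 alternative values, 109 stayed within the spread of the value given and 5 moved. Leaving out 1 library at a time, the members' median log2 fold change lay between -0.025 and 0.0075 for RNA and between -0.064 and 0.041 for footprints. Leaving out 1 extract at a time, their median change of translation efficiency ran from -0.038 to 0.036. Both ends of that range counted as moved, 0.036 without *Mael*+/- replicate 1 and -0.038 without *Mael*+/- replicate 2. The median of the heat-inducible genes in footprints moved to 0.077 without *Mael*+/- replicate 3. The medians of the testis-enriched list moved to -0.13 in RNA and 0.20 in footprints without *Mael*+/- replicate 1. The cause was not tested.

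With the replicate number as a replicate block across genotypes, the median of the members was -0.0060 in RNA and -0.021 in footprints, with 0 called in both. By the labels, libraries of the 2 genotypes share only a number. The correlation of same-numbered deviations ran from -0.041 to 0.29, and its upper end was as high as that between RNA and footprints of the *Mael*-/- extracts. With RNA and footprints paired by extract, the median change of translation efficiency was 0.012, and the pairing changed no call. The 3 extracts per genotype limit the precision: genes with a few counts, such as *Dnajb13*, have intervals several log2 units wide.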
